A study of Mus musculus with 6 samples.

Results

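The transcripts followed here are those of 10 genes that bring fatty acids into adipocytes, bind them there, activate them and sense them outside the cell. They are Lpl, Cd36, Slc27a1, Slc27a4, Fabp3, Fabp4, Fabp5, Acsl1, Acsl4 and Ffar4, taken by name from the 53801 genes of the deposited count table. All 10 were present and all 10 passed the filter on low counts, among 14816 genes tested. RNA was measured in cultures of stromal vascular fraction cells, the cells of fat tissue other than mature adipocytes, from the inguinal white fat of mice labelled Ythdf1 knockout (3 libraries) or wild type (3 libraries). Both groups were sampled on day 4 of adipogenic induction in culture. The Ythdf1 protein is a cytosolic reader of m6A, a methyl mark on messenger RNA. The labels do not give the animals' strain, sex or age, the knockout allele, or the number of animals behind a culture.

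In fat, long-chain fatty acids arrive inside circulating lipoprotein particles or bound to albumin. Lipoprotein lipase, secreted by adipocytes, frees them from triglyceride, and membrane proteins such as CD36 and the fatty acid transport proteins of the SLC27 family help them into the cell. Inside, fatty acid-binding proteins carry them through the cytosol, long-chain acyl-CoA synthetases couple them to coenzyme A, and the acyl-CoA can then be stored or oxidised. Many genes of this route are induced as preadipocytes become adipocytes, and several are known targets of the adipocyte regulator PPAR gamma.

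Total counts per library lay between 16619605 and 20089138, and the floor of 3 counts in a library was 0.146 to 0.185 CPM (counts scaled to a common library total). Ythdf1 itself was at 45.1, 42.8 and 43.5 CPM in knockout replicates 1 to 3 and at 63.0, 62.1 and 60.4 CPM in wild type. That is a log2 fold change of -0.50 ± 0.08 (SE; edgeR adjusted p = 0.000378), so the labels were checked only in part, since most of the transcript signal remained. Adipocyte markers, none of them among the 10 genes, rose for 14 of 14 tested (Lep had too few counts), with a median log2 fold change of 2.25. Their summed level was 5708 to 6693 CPM in knockout and 848 to 1605 CPM in wild type. Progenitor and fibroblast markers fell for 9 of 12 and rose for 0, while Pdgfra, Ly6a and Dcn did not pass. Their summed level was 19482 to 20729 CPM in knockout and 41334 to 44895 CPM in wild type. Most of that sum came from the collagen genes Col1a1 (mean 7480 CPM in knockout, 17723.5 CPM in wild type) and Col3a1 (7209 and 17404 CPM). In such bulk samples a larger share of adipocytes and more RNA per adipocyte cannot be told apart, and this holds for every value that follows.

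Of the 10 genes, 8 were higher in knockout, 1 (Fabp3) was lower and 1 (Acsl4) did not pass (edgeR's quasi-likelihood F test, called at a Benjamini-Hochberg adjusted p under 0.05 over all genes tested). Over all 14816 genes, 44.3% passed in either direction, 22.6% higher and 21.7% lower. The median log2 fold change of the 10 genes was 1.90, and that of all genes tested was 0.01. Together the 10 genes took 1.85% to 2.36% of all counts in the knockout libraries versus 0.440% to 0.641% in the wild-type libraries. The rises of Lpl, Cd36, Slc27a1, Fabp4, Fabp5, Acsl1 and Ffar4, 7 of the 10 genes, reached 2-fold, and those of Ffar4, Slc27a1 and Fabp4 reached 4-fold. Of all genes tested 8.95% rose at least 2-fold and 2.59% at least 4-fold. The 3 knockout values lay wholly above the wild-type values for 8 of the 10 and wholly below for Fabp3. Of all genes tested 55.2% had separated genotypes, 27.9% above and 27.3% below.

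**Figure D1:**
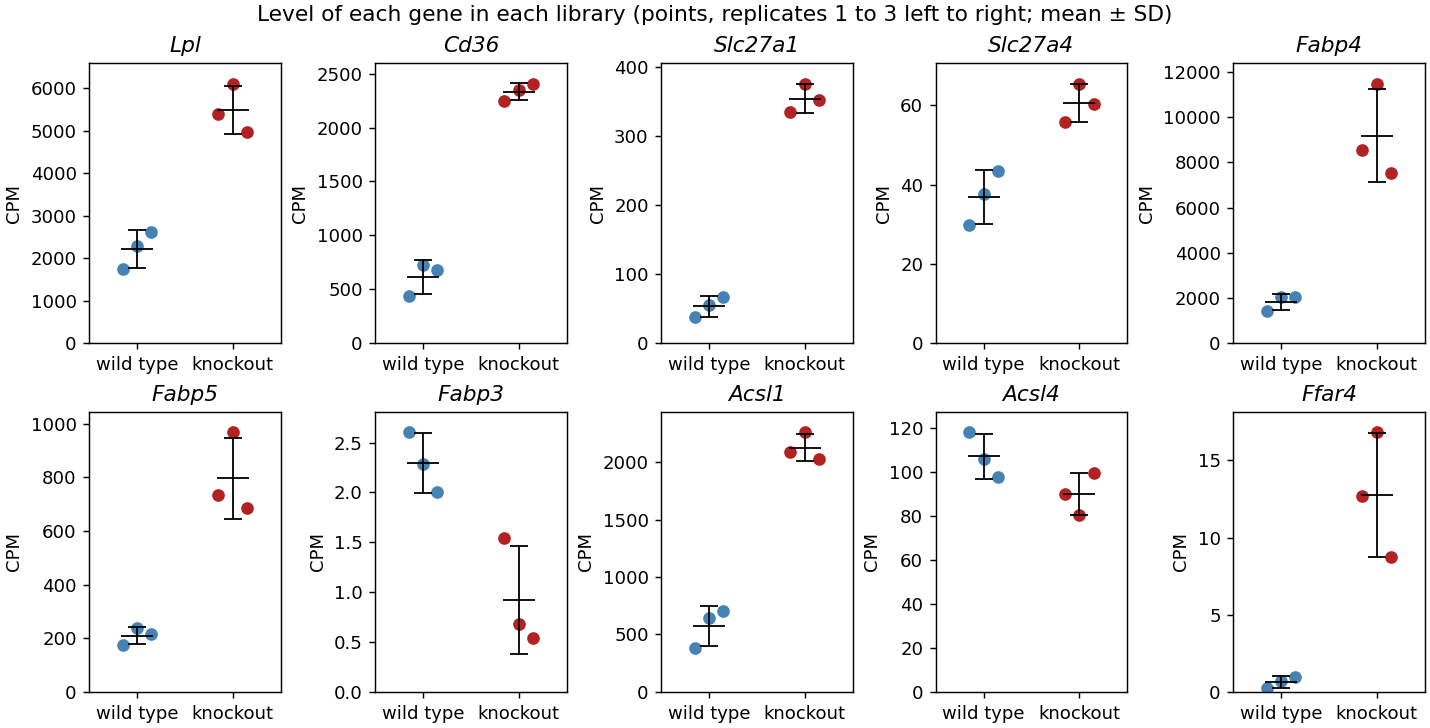
Level of each of the 10 genes in CPM (y axes, each from 0) in the 3 wild-type (blue) and 3 knockout (red) libraries, with mean ± SD as the bar. The genotypes are separate for all but Acsl4, and Fabp3 is the gene whose knockout points all lie below the wild-type points.

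Ordered by level per kilobase of the main transcript, which allows genes to be compared, Fabp4 led in both genotypes, at 10243 ± 2292 CPM per kb in knockout and 2060 ± 392 CPM per kb in wild type (mean ± SD, n = 3). Lpl came next at 1334 ± 139 and 539 ± 108 CPM per kb. In knockout Fabp5 (807 ± 153 CPM per kb) and Cd36 (686 ± 24.2 CPM per kb) overlapped, as they did in wild type, where Cd36 also overlapped with Acsl1. Acsl1 was at 545 ± 30.5 CPM per kb in knockout and 148 ± 44.4 CPM per kb in wild type. The order below these genes differed between genotypes. Slc27a1 was sixth in knockout at 127 ± 7.29 CPM per kb, well above Acsl4 at 17.0 ± 1.81 CPM per kb. In wild type the pair overlapped, with Acsl4 at 20.3 ± 1.95 and Slc27a1 at 19.2 ± 5.29 CPM per kb. Slc27a4 was at 14.9 ± 1.19 CPM per kb in knockout, where it overlapped with Acsl4, and at 9.14 ± 1.68 CPM per kb in wild type. The length used changes part of this order. Per kilobase of all annotated exons of a gene joined (union exon length), Cd36 at 649.9 CPM per kb lay above Lpl at 524 CPM per kb in knockout, and Fabp4 led at 2045 CPM per kb. In wild type Lpl, at 212 CPM per kb of union exon length, stayed above Cd36 at 172, and Acsl4, at 19.8, was above Slc27a1 at 9.18. With this length the mean of Fabp5 was 223 CPM per kb in knockout and 58.8 in wild type, well below that of Cd36 in both. Per kilobase of the main transcript Ffar4 was the lowest in wild type, at 0.461 ± 0.272 CPM per kb, and Fabp3 the lowest in knockout, at 1.12 ± 0.659 CPM per kb.

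The stretches just before the start sites are shown for Cd36 and Ffar4, which rose, and for the synthetase genes Acsl1, which rose, and Acsl4, which did not pass. That of Fabp3, the gene that was lower, is not shown. RefSeq promoter sequences on GRCm38.p6 were held for 7 of the 10 genes, in 10 windows because Acsl1 has 2 start sites and Slc27a1 has 3; Lpl, Fabp4 and Fabp5 had no entry. Each run below is the 250 bases before the RefSeq start, 5′ to 3′ on the gene's own strand and without any annotated exon of that gene (242 bases for Ffar4). The Cd36 window lies inside the annotated gene, which extends upstream to position 17888801 and has 6 annotated transcripts. Any Cd36 start further upstream was not searched. Capitals mark the GC box GGGCGG and the CCAAT box CCAAT, on either strand.
Cd36, minus strand, chr5:17835897-17836146: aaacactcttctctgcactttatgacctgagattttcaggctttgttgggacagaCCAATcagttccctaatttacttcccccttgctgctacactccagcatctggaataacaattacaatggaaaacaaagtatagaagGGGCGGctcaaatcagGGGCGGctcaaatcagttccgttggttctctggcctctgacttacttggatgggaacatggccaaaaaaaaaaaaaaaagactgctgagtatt
Ffar4, plus strand, chr19:38096829-38097070: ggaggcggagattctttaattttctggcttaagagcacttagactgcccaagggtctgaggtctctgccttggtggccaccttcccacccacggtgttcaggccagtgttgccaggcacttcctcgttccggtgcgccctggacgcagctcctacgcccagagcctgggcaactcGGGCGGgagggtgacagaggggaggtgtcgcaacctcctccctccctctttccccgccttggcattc
Acsl1, upstream start, plus strand, chr8:46470787-46471036: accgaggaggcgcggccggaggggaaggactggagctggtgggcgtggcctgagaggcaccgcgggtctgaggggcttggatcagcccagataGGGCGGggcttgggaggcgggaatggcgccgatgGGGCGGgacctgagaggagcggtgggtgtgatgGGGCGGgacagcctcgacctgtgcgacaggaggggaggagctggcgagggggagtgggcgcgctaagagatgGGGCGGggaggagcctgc
Acsl1, downstream start, plus strand, chr8:46490716-46490965: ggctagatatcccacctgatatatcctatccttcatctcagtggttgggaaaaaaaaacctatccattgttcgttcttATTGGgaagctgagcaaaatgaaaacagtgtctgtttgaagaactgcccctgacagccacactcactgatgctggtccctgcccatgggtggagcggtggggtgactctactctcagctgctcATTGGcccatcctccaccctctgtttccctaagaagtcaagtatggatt
Acsl4, minus strand, chrX:142390536-142390785: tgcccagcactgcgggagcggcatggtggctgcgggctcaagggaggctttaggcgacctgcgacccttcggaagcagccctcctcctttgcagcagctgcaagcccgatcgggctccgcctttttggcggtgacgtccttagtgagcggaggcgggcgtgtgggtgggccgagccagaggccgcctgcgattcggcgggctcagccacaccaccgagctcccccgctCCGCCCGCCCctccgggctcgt

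The upstream Acsl1 start had 4 GC boxes and the downstream start 2 CCAAT boxes on the opposite strand and no GC box, so the gene's 2 starts differ in these letters. Cd36 had 2 GC boxes, each the first letters of a short repeated stretch, and 1 CCAAT box. In Acsl4 the 2 GC boxes lay on the opposite strand and overlapped each other. Over all 10 windows of the 7 genes a GC box was found in 7 and a CCAAT box in 4. Of all 32851 RefSeq windows of the same length, 32.7% held a GC box and 33.8% a CCAAT box. The PPAR-type direct repeat (AGGTCA, any 1 base, AGGTCA), a looser form of it (NGGNCA, any 1 base, AGGNCA), the C/EBP palindrome TTGCGCAA and the TATA box TATAAA, searched on both strands, were in 0 of the 10 windows. They were in 0.0335%, 0.694%, 0.164% and 12.4% of all windows. The direct repeats and the palindrome are so rare among all windows that their absence from these 10 says little. An E-box CACGTG, found in 6.02% of all windows, was in 1 of the 10, at the most downstream Slc27a1 start. A match is a stretch of letters, not a shown binding site. These windows leave out distal elements and any Cd36 start upstream of its window.

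Lpl, the gene of the secreted lipase (ENSMUSG00000015568, plus strand of chromosome 8 between 68880491 and 68907448 in GRCm38), was at 5384, 6105 and 4976 CPM in knockout replicates 1 to 3 and at 1744, 2294 and 2622 CPM in wild-type replicates 1 to 3. The lowest knockout library was above the highest wild-type library. Its rise was 2.47-fold, with a 95% interval from 1.96 to 3.11 (log2 fold change 1.31 ± 0.15, SE; edgeR adjusted p = 4.01e-05). Among the 8 genes that rose, the fold of Lpl was smaller than that of every other gene but Slc27a4.

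Of 15 genes that act with or beside the lipase, 10 could be tested, and 5 were higher and 0 lower, with a median log2 fold change of 0.93. The background for this list and for the gene and marker lists that follow is 22.6% higher and 21.7% lower, over all genes tested. The genes for its folding in the secretory pathway did not pass: Lmf1, the lipase maturation factor gene, was at 31.9 ± 1.93 CPM in knockout versus 28.5 ± 3.69 CPM in wild type (edgeR adjusted p = 0.264), and Sel1l at 240 ± 9.96 against 239 ± 15.7 CPM (edgeR adjusted p = 0.96). Lmf2, related to Lmf1 in sequence, had a log2 fold change of -0.16 (edgeR adjusted p = 0.215). Angptl4, whose secreted product inactivates the lipase, rose with it, at 642 ± 12.0 CPM in knockout versus 307 ± 29.6 CPM in wild type (log2 fold change 1.06 ± 0.10; edgeR adjusted p = 8.97e-06). Angptl8, of the same inhibitor family, rose by 1.94 on the log2 scale to 7.29 ± 1.40 CPM. The lipoprotein receptor gene Vldlr was at 268 ± 30.2 against 154 ± 32.0 CPM and rose by 0.79, while the receptor gene Lrp1, at 3196 ± 495 against 3751 ± 323 CPM, did not pass (edgeR adjusted p = 0.179). Lipg, the endothelial lipase gene, rose by 2.48 from 0.494 ± 0.232 CPM in wild type to 2.76 ± 0.461 CPM. Gpihbp1, which holds the lipase on capillary endothelium, had 7, 6 and 21 counts in knockout versus 3, 0 and 7 in wild type, too few to test. Endothelial markers summed to 39.5 to 48.7 CPM in knockout and 46.3 to 50.8 CPM in wild type, with 2 of 11 tested higher and 1 lower. The lower one, Rspo3, gave 3.78 ± 0.241 CPM of that sum in knockout and 16.0 ± 1.04 CPM in wild type.

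Cd36 encodes a scavenger receptor that takes up long-chain fatty acids at the cell surface. Its locus (ENSMUSG00000002944) spans 17781690 to 17888801 of chromosome 5, minus strand. Its levels were 2243, 2351 and 2405 CPM in the knockout libraries versus 439, 729 and 681 CPM in the wild-type libraries. The knockout values lay close together, with a coefficient of variation of 3.52%, while those of wild type varied by 25.2%, wild-type replicate 1 being the lowest. The rise was 3.79-fold, with a 95% interval from 2.92 to 4.91 (edgeR adjusted p = 8.22e-06).

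Slc27a1 and Slc27a4 encode fatty acid transport proteins, membrane proteins that also have acyl-CoA synthetase activity. Slc27a1 (ENSMUSG00000031808, plus strand of chromosome 8 between 71568882 and 71587302) was at 335, 375 and 352 CPM in knockout versus 37.9, 55.5 and 67.3 CPM in wild type. The rise was 6.61-fold, with a 95% interval from 4.97 to 8.79 (log2 fold change 2.72 ± 0.18; edgeR adjusted p = 3.71e-06). Slc27a4 (ENSMUSG00000059316, plus strand of chromosome 2 between 29802634 and 29817522) was at 55.9, 65.5 and 60.3 CPM in knockout versus 29.9, 37.7 and 43.5 CPM in wild type. Its rise was 1.63-fold, with a 95% interval from 1.35 to 1.98 (edgeR adjusted p = 0.00094). The 95% intervals of Slc27a1 and Slc27a4 did not overlap.

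The make-up of the Slc27a family differed between genotypes. Slc27a1 took 83.7% ± 0.698 of the family's counts per kb in knockout and 48.6% ± 4.85 in wild type, and each knockout library was above each wild-type library (43.2%, 50.2% and 52.5% in wild-type replicates 1 to 3). The share of Slc27a4 was 9.87% ± 0.278 in knockout and 23.5% ± 0.0530 in wild type, and that of Slc27a3 5.87% ± 0.857 against 22.7% ± 2.71. Slc27a3 did not pass, at 19.97 ± 2.36 CPM in knockout versus 19.7 ± 1.62 CPM in wild type, with a log2 fold change of 0.02. Slc27a6 fell by 1.23 on the log2 scale, from 4.07 ± 1.09 to 1.74 ± 0.371 CPM (edgeR adjusted p = 0.00466). For the Slc27a1 share an exact 2-sided permutation test over the 6 libraries gave p = 0.1, the smallest that 3 against 3 libraries allows, and p = 0.1 after adjustment over the 3 family shares examined.

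Among 10 other genes tied to uptake, 8 were tested, with 3 higher, 2 lower and a median log2 fold change of 0.02. With so few genes these counts are not set apart from the 22.6% higher and 21.7% lower of all genes tested. The rises were Scarb1, a lipoprotein receptor gene (164 ± 12.8 against 57.3 ± 10.95 CPM, log2 fold change 1.52), Got2, whose mitochondrial enzyme has also been described as a fatty acid-binding membrane protein (220 ± 19.4 against 124 ± 5.07 CPM, 0.82), and the caveolin gene Cav1 (776 ± 10.4 against 578 ± 89.1 CPM, 0.43). The palmitoyltransferase genes Zdhhc4 and Zdhhc5, whose products modify CD36, had log2 fold changes of 0.02 and -0.03 and did not pass. Besides Slc27a6, Mfsd2a fell, at 0.183 ± 0.221 CPM in knockout versus 0.700 ± 0.0304 CPM in wild type, with 1, 1 and 9 counts in knockout.

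Fabp4 encodes the main fatty acid carrier of the adipocyte cytosol (ENSMUSG00000062515, chromosome 3 from 10204088 to 10208576, minus strand). Its levels were 8534, 11476 and 7524 CPM in knockout versus 1441, 2047 and 2050 CPM in wild type. Knockout replicate 2 stood above the other knockout libraries, and all 3 were above wild type. The rise was 4.97-fold, with a 95% interval from 3.72 to 6.64 (edgeR adjusted p = 5.8e-06). In the knockout libraries Fabp4 was, by mean CPM, the third most abundant of the 14816 genes tested, and it was at place 40 in wild type.

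Fabp5, which encodes a carrier widely made in epidermis, macrophages and fat, lies on the plus strand of the same chromosome between 10012548 and 10016607 (ENSMUSG00000027533). It was at 736, 968 and 685 CPM in knockout versus 176, 237 and 216 CPM in wild type. The knockout libraries had the same order as for Fabp4, replicate 2 being the highest and replicate 3 the lowest. The rise was 3.79-fold, with a 95% interval from 3.004 to 4.79 (edgeR adjusted p = 3.82e-06). Processed pseudogenes of Fabp5 carried few reads: Gm6166, 98.3% identical over 409 aligned bases, had 33, 46 and 49 counts in knockout versus 3, 19 and 16 in wild type, against 13383 to 17034 and 3121 to 3843 counts of Fabp5 itself.

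Fabp3, the carrier gene of heart and skeletal muscle (ENSMUSG00000028773, plus strand of chromosome 4 between 130308595 and 130315463), went the other way at a very low level. It was at 1.54, 0.682 and 0.536 CPM in knockout versus 2.60, 2.29 and 2.0004 CPM in wild type, from 28, 12 and 11 counts and 46, 37 and 35 counts. Knockout replicate 1 was nearest to wild type, but the genotypes did not overlap. The log2 fold change was -1.32 ± 0.40 (edgeR adjusted p = 0.0185), and Fabp3 missed the threshold once the second knockout library (log2 fold change -1.16, adjusted p = 0.0523) or the first wild-type library (-1.23, adjusted p = 0.0594) was dropped. Over all alternatives its adjusted p ran from 0.00321 to 0.0594. The summed level of skeletal muscle markers was 8.92 to 9.55 CPM in knockout and 18.5 to 30.2 CPM in wild type. It was highest in wild-type replicate 1, the library in which Fabp3 was also highest. Within knockout the 2 did not go together. The sums were 9.51, 8.92 and 9.55 CPM in replicates 1 to 3, and replicate 3, with the highest sum, had the lowest Fabp3. Of 10 such markers 4 could be tested and 1, Actn3, was lower. Actn3 gave 2.67 ± 0.574 CPM of the muscle sum in knockout and 10.8 ± 1.34 CPM in wild type. Myh4 had 0 counts in the 3 knockout libraries and 15, 1 and 1 in wild type. The part of muscle RNA in the Fabp3 value was not tested. Reads of Fabp3 can also be shared with a copy, Fabp3-ps1, 99.25% identical over 402 bases and with at most 3 counts in a library, and 80 or 81 bases of its exons overlap Gm10570 and Zcchc17 on the opposite strand.

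In the Fabp family both genotypes had nearly all counts in Fabp4 and Fabp5. Fabp4 took 92.6% ± 0.275 of the family's counts per kb in knockout and 90.2% ± 0.785 in wild type, and Fabp5 7.33% ± 0.268 and 9.38% ± 0.635 (exact 2-sided permutation p = 0.1 for the Fabp4 share, adjusted p = 0.1 over the 3 family shares). With union exon length the difference in the Fabp4 share was 4.22 percentage points, against 2.45 with the main transcript. The other family genes were rare. Fabp1, the liver and gut carrier gene, fell by 1.73 on the log2 scale, from 2.02 ± 0.515 to 0.604 ± 0.103 CPM. Fabp2, the intestinal carrier gene, had 0 counts in each knockout library, which allows up to 0.146 to 0.170 CPM, and 9, 9 and 7 counts in wild type, and was named after its values had been seen. Gut epithelium markers were lower in knockout for 7 of 9 tested, among them Epcam with 0, 1 and 3 counts in knockout versus 77, 69 and 50 in wild type, and 0 were higher. The list's summed level, to which Krt19 gave 41.1 ± 6.52 CPM in wild type and 43.6 ± 6.41 CPM in knockout, was 61.4 to 77.8 CPM in knockout and 80.02 to 95.4 CPM in wild type, and the part of such RNA in the Fabp1 and Fabp2 values was not tested.

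Of 13 other genes of fatty acid and acyl-CoA binding 7 were tested, and 3 rose and 1 (Fabp1) fell, with a median log2 fold change of 0.24. Dbi, which encodes the acyl-CoA-binding protein, was at 508 ± 113 CPM in knockout versus 187 ± 30.7 CPM in wild type (log2 fold change 1.44). Scp2, a sterol and fatty acyl-CoA carrier gene, was at 634 ± 93.0 against 235 ± 13.8 CPM (1.43), and Acbd4 at 54.5 ± 10.8 against 24.2 ± 1.43 CPM (1.17). The related genes Acbd5 and Acbd6 did not pass (edgeR adjusted p = 0.501 and 0.0814).

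Acsl1 encodes the main long-chain acyl-CoA synthetase of adipocytes (ENSMUSG00000018796, plus strand of chromosome 8 between 46471037 and 46536051). Its levels were 2091, 2258 and 2027 CPM in knockout versus 380, 643 and 706 CPM in wild type, where replicate 1 was again the lowest. The rise was 3.69-fold, with a 95% interval from 2.68 to 5.07 (edgeR adjusted p = 6.88e-05). On the opposite strand Gm45244 overlaps 1039 bases of Acsl1 exons, and the part of its reads in the Acsl1 value was not tested. Acsl4, which encodes a synthetase that prefers arachidonic acid (ENSMUSG00000031278, chromosome X from 142317993 to 142390535, minus strand), was at 89.8, 80.5 and 99.6 CPM in knockout versus 118, 106 and 97.5 CPM in wild type. These values overlapped, since knockout replicate 3 lay above wild-type replicate 3. Its log2 fold change was -0.25 ± 0.10, with an edgeR adjusted p of 0.0672 and a 95% interval of the fold from 0.719 to 0.982 before adjustment. Acsl4 passed as lower once the third knockout library (adjusted p = 0.0207) or the third wild-type library (0.0454) was dropped, with upper-quartile scaling (0.0301) and with the ending of the library name, L0 or L1, as a covariate (0.0346). Over all alternatives its adjusted p ran from 0.0207 to 0.231.

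Acsl1 took 93.2% ± 0.548 of the Acsl family's counts per kb in knockout and 78.8% ± 6.74 in wild type. In wild type the share varied, with 71.2% in replicate 1 against 81.5% and 83.9% in replicates 2 and 3, and each knockout library was above these values (exact 2-sided permutation p = 0.1, the smallest possible; adjusted p = 0.1 over the 3 family shares). With union exon length the difference in the Acsl1 share was 24.2 percentage points, against 14.3 with the main transcript. The share of Acsl4 was 2.93% ± 0.447 in knockout and 11.6% ± 4.15 in wild type. Acsl3 and Acsl5 rose by 0.75 and 0.32 on the log2 scale, to 34.5 ± 3.20 and 59.1 ± 4.13 CPM, and Acsl6 fell by 1.60, to 0.516 ± 0.225 CPM. The thioesterases, which split acyl-CoA back into fatty acid and coenzyme A, went both ways. Acot2 was at 38.0 ± 4.49 CPM in knockout versus 15.5 ± 1.93 CPM in wild type (log2 fold change 1.29), while Acot11 fell by 1.01, to 6.82 ± 1.02 CPM. Acot9 rose by 0.33 to 67.0 CPM, and Acot1 by 1.10 to 2.67 CPM; Acot1 and Acot2 are close copies, so the split of reads between them is uncertain. Acot13 and Acot7, with log2 fold changes of 0.33 and 0.0032, did not pass. In all, 10 of the 11 other activation and thioesterase genes were tested, with 5 higher and 2 lower.

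**Figure D2:**
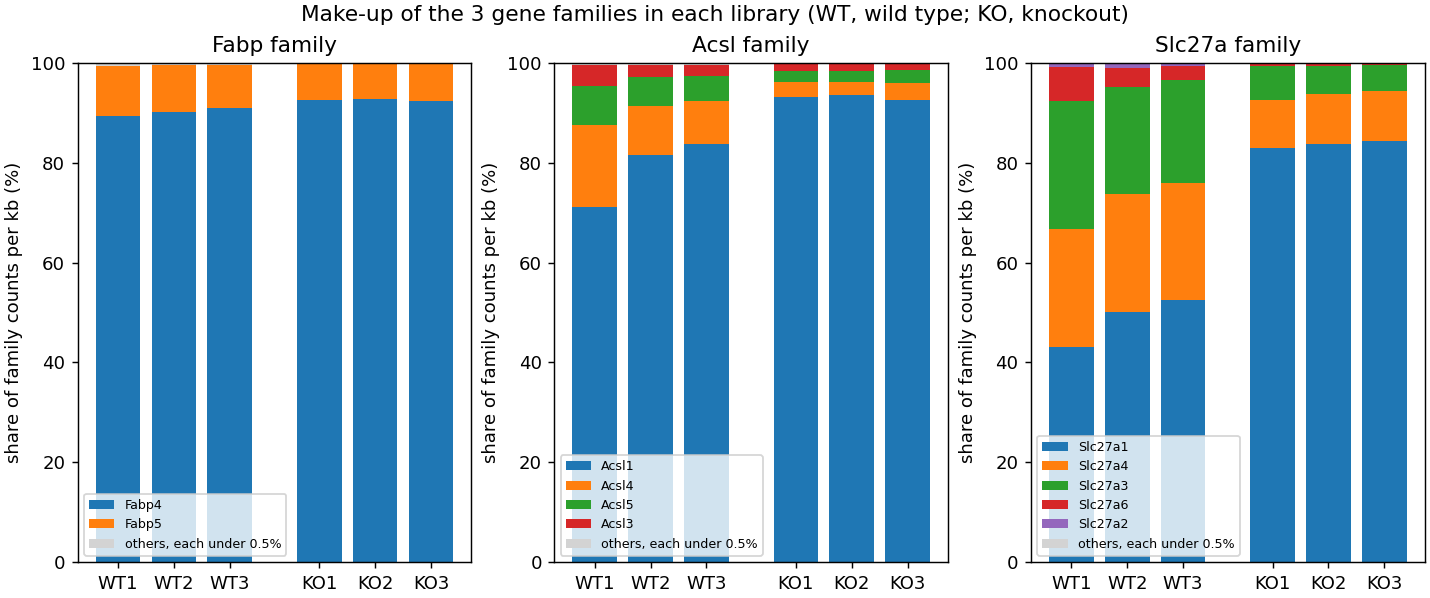
Share of each gene in its family's counts per kb of main transcript (y axis, %) in each wild-type and knockout library. Slc27a1 takes 83.7% on average in knockout and 48.6% in wild type, Acsl1 93.2% and 78.8%, and Fabp4 92.6% and 90.2%.

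Ffar4 encodes a cell-surface receptor for long-chain fatty acids that is made in mature adipocytes (ENSMUSG00000054200, plus strand of chromosome 19 between 38097071 and 38114263). It had 231, 296 and 180 counts in knockout versus 4, 12 and 17 counts in wild type, or 12.7, 16.8 and 8.77 CPM against 0.226, 0.741 and 0.972 CPM. No wild-type library came near the lowest knockout library. The rise was 19.6-fold, with a 95% interval from 10.8 to 35.7 (log2 fold change 4.29 ± 0.39; edgeR adjusted p = 1.44e-05), at place 18 of 14816 by log2 fold change. Leaving out single libraries gave log2 fold changes from 3.87 (the first wild-type library left out) to 4.73 (the third). The other receptors of fatty acids and related metabolites that could be tested rose too, 3 of 3. They were the short-chain fatty acid receptor gene Ffar2 (7.28 ± 0.985 against 2.23 ± 0.571 CPM), the lactate receptor gene Hcar1 (12.5 ± 2.38 against 4.15 ± 1.25 CPM) and the hydroxybutyrate and niacin receptor gene Hcar2 (8.86 ± 0.771 against 1.46 ± 0.184 CPM). Ffar1, Ffar3, Gpr84 and Gpr119 had at most 10 counts in a library.

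Over the 56 other genes of these lists, 38 were tested, and 19 were higher and 5 lower in knockout, with a median log2 fold change of 0.38. Of all genes tested, the background for each list above too, 22.6% were higher and 21.7% lower. The members examined here had a median of 1.90. No test was made of the difference between these lists.

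**Figure D3:**
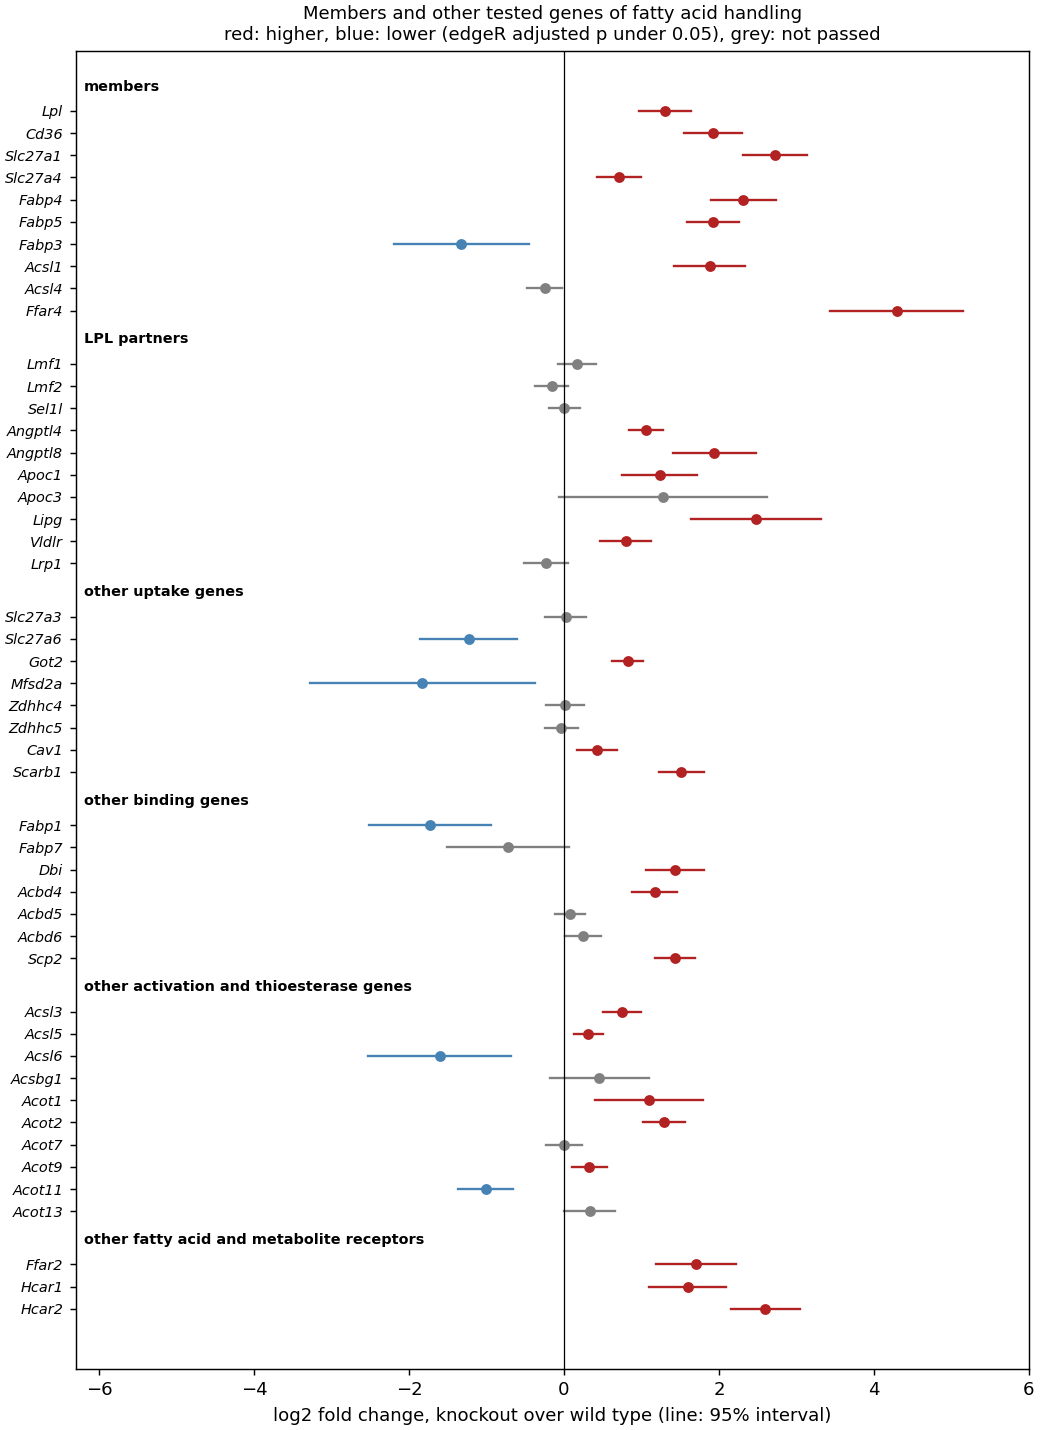
Log2 fold change of knockout over wild type (x axis) with its 95% interval for the 10 genes (top block) and for the 38 other tested genes of fatty acid handling, by list. Of the 10 genes, 8 lie to the right of 0 with an adjusted p under 0.05, against 19 of the 38 and 22.6% of all genes tested.

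The 8 genes that rose had the same lowest wild-type library and, but for 1 of them, the same highest knockout library. The order of the remaining libraries differed between genes. Wild-type replicate 1 was the lowest wild-type library for 8 of 8, and knockout replicate 2 the highest knockout library for 7 of 8, the exception being Cd36. Among all 3342 genes that rose, these libraries took those places for 58.0% and 50.3%. Wild-type replicate 1 also had the lowest summed level of adipocyte markers (848 CPM, against 1509 and 1605 CPM in replicates 2 and 3), and knockout replicate 2 the highest (6693 CPM, against 6091 and 5708 CPM in replicates 1 and 3). With either library left out, 8 of the 10 genes still passed as higher.

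To set the members beside the adipocyte markers, each gene's count was divided by the geometric mean of the 14 markers in the same library. This ratio does not depend on library scaling. The markers themselves rose unequally, with log2 fold changes from 1.25 (Dgat2) to 4.67 (Cfd). Those of Lpl, Cd36, Slc27a1, Fabp4, Fabp5, Acsl1 and Ffar4 lay within that range, so their ratios do not set them apart from single markers. The ratios of Ffar4 and Slc27a1 were higher in knockout, by 2.07 and 0.34 on the log2 scale, and the 3 knockout ratios were wholly above those of wild type, as for 0.52% of all genes tested. For Fabp4 the ratio differed by -0.11 and the genotypes overlapped (exact 2-sided permutation p = 0.5). The ratios of Cd36, Acsl1 and Fabp5 were lower in knockout, with differences of -0.47, -0.49 and -0.50, and that of Lpl differed by -1.10. The Lpl ratio was nearly the same in the 3 knockout libraries, 4.62, 4.62 and 4.65 on the log2 scale, against 5.92, 5.605 and 5.66 in wild type. Slc27a4, Acsl4 and Fabp3 had differences of -1.70, -2.68 and -3.89. The knockout ratios of these 7 genes lay wholly below wild type, which 95.3% of all genes tested also did; 95.8% of all genes had ratios wholly above or below. For each gene other than Fabp4 the exact 2-sided permutation p was 0.1, the smallest the design allows, and 0.111 after adjustment over the 10 genes.

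**Figure D4:**
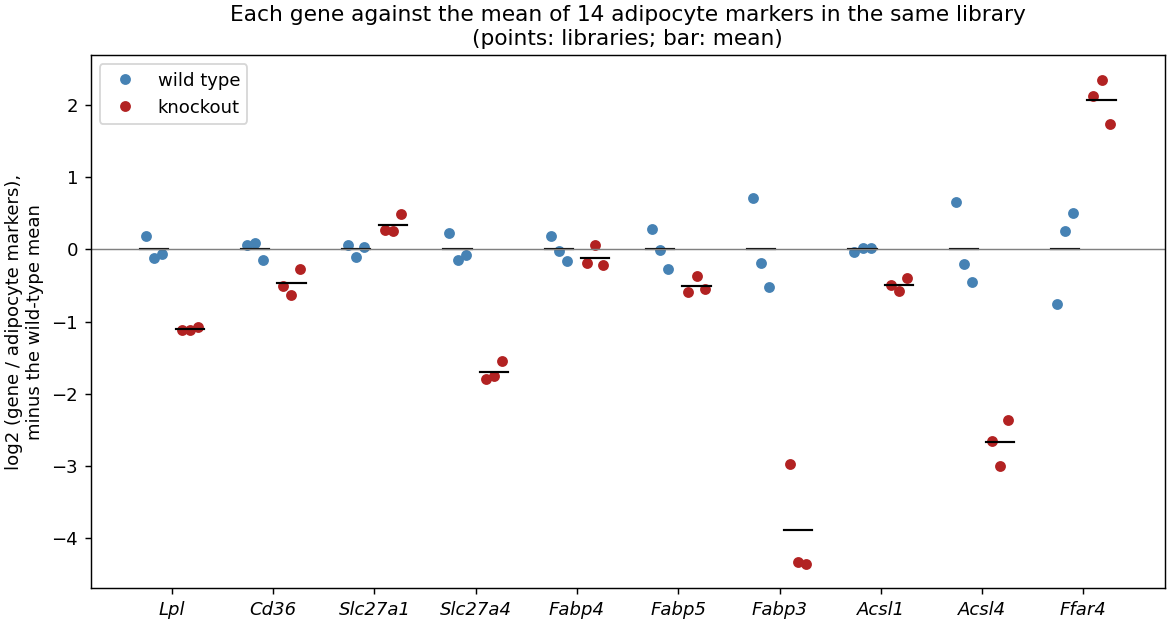
Log2 ratio of each gene to the mean of 14 adipocyte markers in the same library, shown as the difference from the wild-type mean (y axis), for 3 wild-type (blue) and 3 knockout (red) libraries. Ffar4 (2.07) and Slc27a1 (0.34) lie above the line, Fabp4 (-0.11) lies around it, and the other genes lie below it.

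Macrophages also make Cd36, Fabp4, Fabp5 and Lpl, and their markers were higher in knockout. Of 12 macrophage markers 10 were higher and 0 lower, against 22.6% and 21.7% of all genes tested. Their summed level was 181, 166 and 425 CPM in knockout replicates 1 to 3 and 58.1 to 72.6 CPM in wild type. Replicate 3, the highest in macrophage markers, was the lowest knockout library for Lpl, Fabp4 and Fabp5 and the highest for Cd36. With that library left out the log2 fold changes were 1.37 for Lpl, 1.90 for Cd36, 2.44 for Fabp4 and 2.03 for Fabp5, against 1.31, 1.92, 2.31 and 1.92 with all libraries. Knockout replicates 1 and 2 were themselves above wild type in macrophage markers, and the part of macrophage RNA in these values was not tested.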

How the data were processed

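The deposited table holds raw counts of reads per Ensembl gene, made by the authors with STAR and featureCounts on mm10 and GRCm38 per the submitters' processing notes. The sources used here do not name versions, the annotation, strandedness or how multi-mapping reads were handled. Ribosomal RNA had been depleted and reads were paired, per the labels' protocols. Symbols, positions and transcript lengths came from GENCODE mouse release 21, which held 53706 of 53801 identifiers.

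After filterByExpr (at least 10 counts, total at least 15), counts were scaled with TMM and tested in edgeR 4.0.16 (R 4.3.3) with the robust quasi-likelihood F test, 2-sided, with genotype as the single term and Benjamini-Hochberg adjustment at 0.05. CPM values use the scaled totals of kept genes, and ± after a log2 fold change is a standard error. CPM per kb and family shares use the length of the main transcript (best APPRIS rank, then longest). Copies were sought with BLAST+ 2.17.0 (at least 80% identity over at least 150 bases and 50% of the copy). The fit was tested on simulated counts with known changes.

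The members, gene lists and marker lists were chosen from general knowledge with earlier results of these data known. From the lists, genes with a mean of at least 20 CPM in a genotype or among the 2 largest changes either way in a list could be named, and others were where a count of few genes or an untested gene is described. The series calls the libraries biological replicates, but culture or preparation differences that coincide with genotype cannot be told apart from it. Chi-square per degree of freedom between libraries of a genotype was 10.2 to 26.3, so none was a duplicate. Floors of 3 counts cover counting error only. Alternatives were RLE and upper-quartile factors, TMM without the 50 most abundant genes, DESeq2 1.42.0, limma-voom (limma 3.58.1), other low-count filters, a replicate block, a covariate for the library-name ending (L0 or L1, a code that is not explained), and each library left out; union exon length was added after the data had been seen.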

Additional observations from a re-analysis of the deposited data

How the results depend on the processing

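The count of 8 members higher in knockout was the same under all 9 alternative fits and with each of the 6 libraries left out. The count of members lower was 2, with Acsl4 added to Fabp3, under upper-quartile factors and with the library-name ending as a covariate, and ran from 0 to 2 with 1 library left out: 0 without knockout replicate 2 or wild-type replicate 1, and 2 without knockout replicate 3 or wild-type replicate 3. Of 150 alternative values of single members, 144 kept direction and side of the threshold, 2 (Fabp3) no longer passed and 4 (Acsl4) newly passed, and none turned direction. The other genes of fatty acid handling were higher for 17 to 22 and lower for 4 to 6 with 1 library left out. Over all genes, 2741 to 3395 were higher and 2535 to 3279 lower with 1 library left out, and 2989 and 3688 with upper-quartile factors. With union exon length the Fabp4 share differed between genotypes by 4.22 percentage points and the Acsl1 share by 24.2, against 2.45 and 14.3 with the main transcript length; the union is longer than the main transcript, at 4489 against 896 bases for Fabp4 and 10483 against 3897 bases for Acsl1. With 1 library left out these differences ran from 2.08 to 2.86 and from 10.5 to 16.8 percentage points. Same-numbered libraries did not deviate together (correlations of their deviations from the group means -0.126, 0.0117 and -0.143 for replicates 1 to 3), and the replicate block gave 3136 genes higher and 2993 lower and changed no call of a member. Depth limits Fabp3, at 11 to 46 counts, and Ffar4 in wild type, at 4 to 17 counts.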
